A study of Mus musculus with 16 samples.

Results

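Red pulp macrophages were examined in the CD45+ cells of the naive spleen. A cell was counted as a red pulp macrophage when it carried at least 3 UMIs (unique molecular identifiers, each standing for 1 captured transcript) of the complement subunits C1qa, C1qb and C1qc in sum, at least 1 UMI of Spic, Vcam1, Slc40a1 or Hmox1, and no UMI of the lymphocyte genes Cd3e and Cd79a. This rule kept 331 of 47060 CD45+ cells, which is 0.703% (95% Clopper-Pearson interval 0.630 to 0.783, counting error only). The cells were thus chosen on measured values, and the levels of the 9 genes of the rule are given as a description with no test.

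The spleens came from untreated C57BL/6J mice labelled wild type, and the study used male mice. The age of the naive mice was not given in the sources used here. Spleens were pressed through a strainer, treated with ACK buffer to lyse red cells, and sorted for viable CD45+ cells before 10x Genomics 3' library construction. The cells carried 5 library tags, called NS1 to NS5 here, and the labels do not say whether each tag is a separate mouse. The paper treats each mouse as its own sample but does not tie these tags to mice. Every p-value below thus measures the spread between libraries, which may be technical. Cells picked by the same rule from rejecting kidney grafts 1 week after transplantation were used for comparison: kidneys of C57BL/6J donors in DBA/2J recipients, a pairing that rejects, with 2 library tags (R7K2 and R7K3).

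Red pulp macrophages are the resident macrophages of the splenic cords. They engulf aged and damaged erythrocytes, break down the haem of hemoglobin with haem oxygenase 1 (Hmox1), store the released iron in ferritin, and return it to the plasma through the iron exporter ferroportin (Slc40a1). Their development depends on the ETS family factor SpiC (Spic), whose gene is held down by the repressor BACH1 until haem binds BACH1 and causes its degradation. The adhesion molecule VCAM1, which binds the integrin VLA-4, is a surface marker of these cells, and C1q is the recognition unit of the classical complement pathway.

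Library totals over all CD45+ cells ran from 30054753 to 37016197 UMIs, so the libraries were close in depth. The 331 red pulp macrophages held 1236307 UMIs, with a median of 2999 UMIs and 1270 genes per cell, and 68 of them had fewer than 1000 UMIs. NS1 gave 166 of the cells, NS2 36, NS3 64, NS4 34 and NS5 31, which is 1.46%, 0.447%, 0.709%, 0.375% and 0.324% of the CD45+ cells of each library (mean 0.664% ± 0.471, SD, n = 5). NS1 therefore stood above the other 4 libraries, whose mean was 0.464%. Of 46821 distinct barcode sequences, 238 occurred in more than 1 library, 4 red pulp macrophages carried such a sequence, and none shared one with another red pulp macrophage. A further 351 cells met the rule apart from a UMI of Cd3e or Cd79a, 193 with Cd79a alone, 96 with Cd3e alone and 62 with both. They made up 51.5% of the 682 cells that met the macrophage part of the rule, and their median depth was 5578 UMIs. The doublet caller scrublet marked 13 of them and none of the 331, but it marked only 1 of 11340 cells in NS1 and did not work there, so it says nothing of the 166 cells of that library.

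The rule left a graded group. The summed C1q count per red pulp macrophage ran from 3 to 80 UMIs with a median of 8, and 50 cells stood at the threshold of 3. Just outside it were 39 cells with 2 C1q UMIs, whose median depth was 3589 UMIs against 3038.5 for the cells with 3. Of the 4 further genes, Vcam1 was detected in 286 red pulp macrophages, Hmox1 in 254, Slc40a1 in 248 and Spic in 163, and 111 cells carried all 4 while 40 carried only 1. A further 13 C1q cells carried none of the 4 and were left out.

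Coordinates of whole genes are given for 5 of the positive genes of the rule in the GRCm38 mouse genome (GENCODE annotation). Spic lies at chr10:88674772-88685015, minus strand, Vcam1 at chr3:116109949-116129688, minus strand, Slc40a1 at chr1:45908068-45926523, minus strand, Hmox1 at chr8:75093621-75100589, plus strand, and C1qa at chr4:136895917-136898803, minus strand. Levels are given in CPM, the UMIs of a gene per 1000000 UMIs of the summed cells of a library, and are compared within genes only. C1qa stood at 1322, 1432, 1322, 1565 and 826 CPM in NS1 to NS5. Vcam1 stood at 2013, 3341, 1831, 2867 and 1408 CPM in the same order, and Slc40a1 at 1015, 2387, 1098, 2193 and 1197 CPM. NS2 and NS4 were highest for Vcam1 and Slc40a1, while NS5 was lowest for C1qa and Vcam1. Spic stood at 360, 780, 395, 573 and 228 CPM, and Hmox1 at 770, 1276, 1436, 1147 and 464 CPM. NS5 was lowest for both.

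The reference for these levels was a set of 621 other myeloid cells of the same spleens, with at least 3 UMIs of Csf1r and Lyz2 in sum, no Cd3e or Cd79a, and outside the rule above. Csf1r encodes the receptor for the macrophage growth factor CSF1, and Lyz2 encodes lysozyme. These cells held 3448405 UMIs at a median of 5324 per cell. In them Spic averaged 21.7 ± 12.5 CPM (SD, n = 5), Vcam1 18.9 CPM, Slc40a1 44.7 CPM and C1qa 11.4 ± 5.70 CPM. Spic was detected in 49.2% of red pulp macrophages, in 6.76% of the reference cells and in 0.631% of splenic B cells. Csf1r averaged 865 ± 205 CPM in red pulp macrophages and 467 ± 109 CPM in the reference cells, while Lyz2 averaged 2707 ± 1643 and 13759 ± 1602 CPM. Both genes chose the reference cells and were not tested.

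The promoter of C1qc, a gene of the rule, is shown because its window holds an 8-base run of the type bound by ETS factors such as PU.1 and SpiC. The 100 bases lie at chr4:136893050-136893149 (RefSeq, GRCm38.p6), are read on the minus strand, and end 136 bases before the RefSeq transcription start. In the GENCODE annotation the gene starts at chr4:136893065, so the last bases shown lie inside it. Capitals mark GAGGAAGT, which lies on the opposite strand here and therefore reads as its reverse complement.

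C1qc: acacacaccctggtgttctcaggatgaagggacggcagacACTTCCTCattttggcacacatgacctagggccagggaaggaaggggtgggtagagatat

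Promoter windows were found for 3 of the 7 positive genes of the rule, and GAGGAAGT was present in 1 of these 3 windows on either strand, against 3.20% of all 32851 promoter windows of the table. This is a match of letters and says nothing of binding.

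Genes that the rule did not use were tested with edgeR's quasi-likelihood test on the UMIs summed per library, red pulp macrophages against the 621 reference cells, with the library as a block and Benjamini-Hochberg adjustment over all genes tested. Of 4180 genes tested, 1080 passed an adjusted p of 0.05 (25.8%), 551 higher in red pulp macrophages (13.2%) and 529 lower (12.7%). The split was 443 higher and 278 lower without cells with a globin UMI, 430 and 660 against reference cells without an S100a9 UMI, and 79 and 158 after thinning to 1000 UMIs. Without NS1, 686 genes passed (10.2% of those tested higher and 8.14% lower), and without the library as a block 702. The first question was whether genes known for red pulp macrophages, but absent from the rule, separated the groups. Of 32 such genes, 25 had enough counts to be tested, 20 were higher, 1 was lower and 4 did not pass, with a median log2 fold change of 1.90 against 0.00 for all genes tested. The counts were 20 higher and 1 lower of 23 tested without NS1, and the same without cells that carried a globin UMI. Several of these genes passed the filter on low counts only through their level in red pulp macrophages, so the count describes the list and is no test of it.

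The largest fold change of the list was that of Mertk. This receptor tyrosine kinase, which recognizes phosphatidylserine through bridging proteins, stood at 284, 523, 232, 473 and 202 CPM in the red pulp macrophages of NS1 to NS5 and at 1.45, 6.76, 0, 2.87 and 0 CPM in the reference cells. The lowest library of the first group was far above the highest of the second. In sum these were 378 and 5 UMIs. The fitted log2 fold change was 7.44 (higher in 5 of 5 libraries), and since Mertk passed the filter on low counts only through its level in red pulp macrophages, this is a description and no p is given. Its relative Axl stood at 446, 753, 562, 558 and 481 CPM against 10.9, 16.9, 20.4, 11.49 and 10.0 CPM (log2 fold change 5.19 ± 0.20, SE), again with no overlap. Axl too passed the filter only through red pulp macrophages, so no p is given. The same limit holds for every gene below that was near 0 in the cells compared, and the fold changes of such genes are descriptions. Mertk UMIs were found in 30.5% of red pulp macrophages, 0.805% of reference cells and 0.0358% of B cells, and Axl UMIs in 62.5%, 5.80% and 0.211%.

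**Figure D1:**
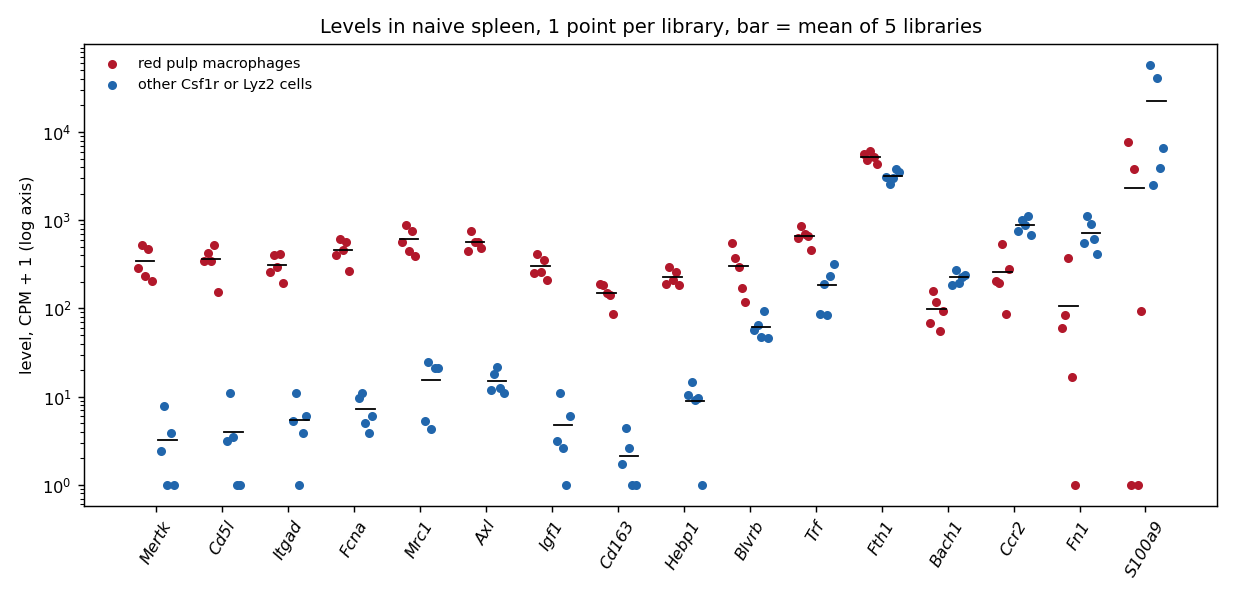
Level of 16 genes per library in naive spleen (CPM plus 1, log axis), red pulp macrophages in red and other Csf1r or Lyz2 cells in blue, 1 point per library and a bar at the mean of 5 libraries. Mertk to Hebp1 show no overlap between the groups, with red pulp macrophages higher, while Bach1, Ccr2 and Fn1 are lower in red pulp macrophages without overlap and S100a9 overlaps.

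A secreted lectin, a scavenger protein and a lectin receptor of the list are given next. Fcna, the secreted lectin ficolin A, stood at 405, 615, 460, 566 and 261 CPM against 8.69, 10.1, 4.09, 2.87 and 5.02 CPM (log2 fold change 6.10 ± 0.24). Cd5l, a secreted scavenger receptor cysteine-rich protein, stood at 341, 422, 346, 527 and 152 CPM against 2.17, 10.1, 2.45, 0 and 0 CPM (log2 fold change 6.95 ± 0.30). Mrc1, the mannose receptor CD206, stood at 564, 881, 452, 752 and 388 CPM against 4.34, 23.7, 3.27, 20.1 and 20.1 CPM (log2 fold change 5.95 ± 0.28). In all 3 genes every library of red pulp macrophages lay above every library of the reference cells. All 3 passed the filter on low counts only through red pulp macrophages and are described without a p. Itgad, the integrin alpha D chain of this cell type, averaged 312 ± 94.2 against 4.48 ± 3.71 CPM (log2 fold change 6.39 ± 0.33). Adgre1, which encodes the macrophage antigen F4/80, averaged 321 ± 146 against 79.5 ± 14.9 CPM (log2 fold change 2.00 ± 0.19), also without overlap.

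The 4 genes of the list that did not pass were Cd68, Fcgr1, Cd300ld and Gpr183, and Itgam, the CD11b chain, was the gene that was lower, at 106 ± 45.7 against 349 ± 95.4 CPM (log2 fold change -1.72 ± 0.19, edgeR adjusted p = 9.3e-07). Markers of the macrophages that border the white pulp were rare: Marco averaged 14.1 ± 11.8 CPM (20 UMIs in all) and Siglec1 3.58 ± 5.20 CPM (7 UMIs in all) in the cells chosen by the rule. Timd4, a phosphatidylserine receptor of resident macrophages, averaged 32.9 ± 23.1 CPM against 3.12 ± 4.14 CPM and was too low to be tested.

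The 15 genes with the largest fold change among those that passed with a mean of at least 100 CPM over both groups (which leaves out Cd163, Nr1h3 and Abca1, among others) and the same direction in every library were Mertk, Cd5l, Ccr3, Igf1, Itgad, Fcna, Mrc1, Axl, Hebp1, Maf, Clec4n, Arap2, Frmd4b, Sash1 and Serpinb6a. None of the 15 overlapped between the groups, which their choice by fold change and common direction largely fixes, so nothing is read from it. Igf1, the growth factor IGF-1, averaged 298 ± 83.4 against 3.79 ± 3.98 CPM (log2 fold change 6.57 ± 0.30), and Ccr3, a chemokine receptor known from eosinophils, averaged 347 ± 135 against 2.95 ± 4.18 CPM (log2 fold change 6.74 ± 0.29). Clec4n, which encodes the lectin receptor dectin-2, averaged 239 ± 129 against 18.1 ± 9.65 CPM (log2 fold change 3.92 ± 0.26). Arap2, a regulator of small GTPases, averaged 196 ± 71.5 against 10.2 ± 3.71 CPM (log2 fold change 3.79 ± 0.27).

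Arap2 is the one gene of these 15 whose promoter window held TGANTCAGC, the letters shared by elements that NRF2, MAF proteins and BACH1 bind. Its 100 bases at chr5:62766296-62766395 (RefSeq, GRCm38.p6) are shown on the minus strand and end 119 bases before the transcription start. Capitals mark the run in which the motif is read on both strands with overlap.

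Arap2: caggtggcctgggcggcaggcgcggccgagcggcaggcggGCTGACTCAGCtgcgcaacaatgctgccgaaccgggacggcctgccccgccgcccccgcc

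Windows were found for 12 of the 15 genes, with 15 windows in all, of which 1 held TGANTCAGC, against 1.19% of all 32851 windows. None of the 12 windows of the iron genes that were higher held it, and none of the 15 or 12 windows held GAGGAAGT. The windows span 250 bases before to 50 after the start, so a site elsewhere was not looked for.

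Iron and haem genes outside the rule were next. Of 28 genes, 17 were tested, 10 were higher, 3 were lower and 4 did not pass (Pcbp1, Pcbp2, Hmox2 and Ireb2), with a median log2 fold change of 0.72. Without NS1 the counts were 9 and 2 of 17, and without cells with a globin UMI 9 and 1 of 16. The shares over all genes tested were 13.2% higher and 12.7% lower, 10.2% and 8.14% without NS1, and 13.3% and 8.35% without cells with globin. Haem uptake and breakdown were represented by Cd163, the receptor for hemoglobin bound to haptoglobin, at 187, 184, 148, 139 and 84.3 CPM against 0.724, 3.38, 1.63, 0 and 0 CPM (202 and 4 UMIs in sum, fitted log2 fold change 6.83). Like Mertk, both Cd163 and Hebp1 passed the filter on low counts only through red pulp macrophages. They are described without a p, and their place among the 10 higher genes is no support for that count. The haem-binding protein Hebp1 stood at 188, 294, 209, 256 and 186 CPM against 9.41, 13.5, 8.17, 8.62 and 0 CPM (log2 fold change 4.59 ± 0.25). Neither gene overlapped between the groups. Blvrb, which reduces biliverdin, stood at 550, 367, 296, 170 and 118 CPM against 55.7, 64.2, 46.6, 91.9 and 45.2 CPM (log2 fold change 2.46 ± 0.26), highest in NS1, the library that also carried most globin UMIs. Blvrb is also high in erythroid cells, and the part of erythroid RNA in its level was not tested. Slc48a1, the transporter HRG1 that moves haem out of the phagolysosome, averaged 125 ± 36.4 against 38.4 ± 15.1 CPM (log2 fold change 1.81 ± 0.23).

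The ferritin genes differed less than these. The ferritin heavy chain gene Fth1 stood at 5631, 4810, 6129, 5254 and 4368 CPM against 3046, 2562, 3004, 3842 and 3527 CPM (log2 fold change 0.72 ± 0.16, edgeR adjusted p = 0.0019). The groups did not overlap, although both were among the most abundant transcripts. The light chain gene Ftl1 had a log2 fold change of 0.45 ± 0.16 (edgeR adjusted p = 0.038), and it no longer passed when any 1 library was left out (log2 fold change 0.34 to 0.53, edgeR adjusted p = 0.053 to 0.15). Trf, the plasma iron carrier transferrin, averaged 664 ± 143 against 182 ± 101 CPM (log2 fold change 2.13 ± 0.26), Ncoa4, the receptor that sends ferritin to the lysosome, had a log2 fold change of 1.26 ± 0.25, and Slc11a1, the phagosomal iron transporter NRAMP1, 1.23 ± 0.21. Tfrc, the transferrin receptor, was too low to be tested, at 41.4 ± 38.2 against 9.34 ± 6.46 CPM.

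The 3 iron genes that were lower are regulators. Bach1, the haem-sensing repressor of Hmox1, Slc40a1 and Spic, stood at 66.5, 156, 118, 54.2 and 92.8 CPM against 181, 274, 194, 227 and 241 CPM (log2 fold change -1.21 ± 0.19, edgeR adjusted p = 9.7e-05), with every library of red pulp macrophages below every library of the reference cells. Nfe2l2, which encodes NRF2, an activator at many of the same sites, had a log2 fold change of -0.72 ± 0.18 (edgeR adjusted p = 0.0047), and Fbxl5, the iron-sensing part of a ubiquitin ligase for IRP2, -0.82 ± 0.23 (edgeR adjusted p = 0.014). These are transcript levels and do not measure the proteins.

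**Figure D2:**
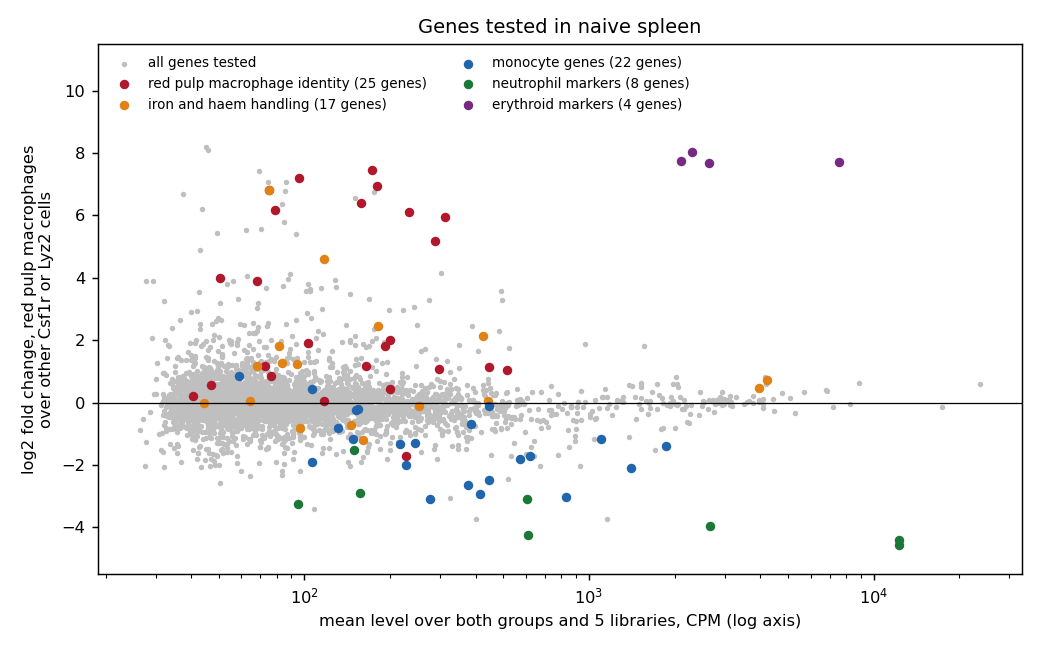
Log2 fold change of red pulp macrophages over other Csf1r or Lyz2 cells against the mean level over both groups and 5 libraries (CPM, log axis) for all 4180 genes tested in gray, with 5 gene lists in color. The red pulp macrophage identity genes reach 7.44 (Mertk), the monocyte genes have a median of -1.36, neutrophil markers lie below 0, and 4 erythroid markers lie near 8.

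Among 30 macrophage transcription factors, 21 were tested, 8 were higher, 4 were lower and 9 did not pass. Without NS1 the counts were 5 and 4 of 18. Over all genes tested, 13.2% were higher and 12.7% lower, or 10.2% and 8.14% without NS1. Maf, which encodes the large MAF factor c-MAF, stood at 428, 643, 372, 907 and 506 CPM against 23.9, 67.6, 18.8, 34.5 and 15.1 CPM (log2 fold change 4.17 ± 0.21). Nr1h3, which encodes the oxysterol receptor LXR alpha, averaged 164 ± 72.9 against 10.8 ± 8.23 CPM (log2 fold change 3.97 ± 0.31). Neither gene overlapped between the groups. Both passed the filter on low counts only through red pulp macrophages. They are described without a p, and their place among the 8 higher genes is no support for that count. Id2 (log2 fold change 1.86 ± 0.24), Pparg (1.83 ± 0.35), Bhlhe40 (1.51 ± 0.29), Rxra (1.36 ± 0.28) and Relb (0.89 ± 0.26) were also higher, with overlap for Pparg and Relb. The myeloid factor genes Spi1 (log2 fold change -0.93 ± 0.15), Cebpb (-1.11 ± 0.19), Klf2 (-0.84 ± 0.15) and Klf4 (-0.86 ± 0.19) were lower. Spi1, which encodes PU.1, averaged 289 ± 52.4 against 543 ± 20.7 CPM and was thus still well detected in red pulp macrophages.

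Genes for digestion of engulfed material were higher in part. Of 32 lysosomal genes, 28 were tested, 10 were higher, 1 was lower (Npc2, log2 fold change -0.63 ± 0.17) and 17 did not pass, with a median log2 fold change of 0.36. The shares over all genes tested were 13.2% higher and 12.7% lower. The protease gene Lgmn averaged 425 ± 172 against 72.3 ± 10.9 CPM (log2 fold change 2.49 ± 0.17, edgeR adjusted p = 1.3e-09), and Ctsd, cathepsin D, 803 ± 246 against 160 ± 67.5 CPM (log2 fold change 2.31 ± 0.23). Ctsb, cathepsin B, stood at 2160, 3167, 2360, 3107 and 1290 CPM against 449, 832, 599, 778 and 794 CPM (log2 fold change 1.80 ± 0.19), without overlap. Dnase2a, which cuts the DNA of engulfed nuclei, had a log2 fold change of 1.85 ± 0.23. Ctss and Lamp1 were abundant in both groups and did not pass (log2 fold change -0.27 ± 0.15 and 0.05 ± 0.15).

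Of 20 lipid genes, 16 were tested, 5 were higher and 4 were lower, or 2 lower of 13 without NS1. Over all genes tested, 13.2% were higher and 12.7% lower, or 8.14% lower without NS1. The cholesterol exporter gene Abca1 stood at 101, 110, 72.2, 116 and 101 CPM against 8.69, 3.38, 3.27, 8.62 and 10.0 CPM (log2 fold change 3.81 ± 0.30), and its relative Abcg1 averaged 171 ± 24.1 against 72.4 ± 24.98 CPM (log2 fold change 1.44 ± 0.21). Abca1 passed the filter on low counts only through red pulp macrophages. It is described without a p, and its place among the 5 higher genes is no support for that count. The lysosomal phospholipase gene Pla2g15 had a log2 fold change of 2.56 ± 0.26. All 3 separated the groups without overlap. Apoc2 (log2 fold change -1.90 ± 0.26) and the lipid receptor gene Trem2 (-2.04 ± 0.42) were lower, and Apoe was abundant in both groups and did not pass (1688 ± 370 against 1353 ± 815 CPM, edgeR adjusted p = 0.20).

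Genes for uptake of dying cells, a list that includes Mertk and Axl, were mixed, with 5 higher, 2 lower and 7 that did not pass of 14 tested out of 26. Mertk and Axl passed the filter on low counts only through red pulp macrophages, so their place among the 5 is no support for that count. Itgb5, an integrin chain that binds the bridging protein MFG-E8, had a log2 fold change of 1.78 ± 0.25, and Sirpa, the receptor for the inhibitory signal CD47, 1.13 ± 0.15. The scavenger receptor gene Msr1 (-1.51 ± 0.38) and the GTPase gene Rac1 (-0.60 ± 0.15) were lower. Complement genes outside C1q split as well, with 3 higher and 4 lower of 10 tested out of 23, or 2 lower of 9 without NS1. The median log2 fold change was 0.34 for the uptake list and -0.20 for complement. Over all genes tested, 13.2% were higher and 12.7% lower, or 8.14% lower without NS1. The properdin gene Cfp, which stabilizes the alternative pathway convertase, was higher (308 ± 67.1 against 74.2 ± 23.3 CPM, log2 fold change 1.94 ± 0.20), while C3 (-1.92 ± 0.24) and the C1q-binding lectin gene Cd93 (-1.90 ± 0.41) were lower.

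Of 10 MHC class II genes, 9 were tested, 5 were higher and none was lower, with a median log2 fold change of 0.82. Over all genes tested, 13.2% were higher and 12.7% lower. H2-Aa stood at 1330, 1900, 2135, 1751 and 5220 CPM against 379, 1981, 727, 2117 and 2642 CPM (log2 fold change 0.82 ± 0.25, edgeR adjusted p = 0.018). The groups overlapped, NS5 was highest in both, and without NS1 only 1 of 8 tested genes of the list was still higher. Without cells with a globin UMI it was 1 of 7. Both counts are near the shares of all genes that were higher in these settings, 10.2% and 13.3%. H2-Ab1 and H2-Eb1 did not pass (edgeR adjusted p = 0.11 for both).

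Of 29 cytokine and chemokine genes, 9 were tested, 3 were higher and 3 were lower. Il18, an inflammasome cytokine, averaged 162 ± 53.3 against 24.7 ± 8.55 CPM (log2 fold change 2.66 ± 0.22) without overlap. Ccl5 was also higher (log2 fold change 2.46 ± 0.48) but ran from 18.4 to 1265 CPM among the libraries of red pulp macrophages, and it is a gene of cytotoxic lymphocytes. Il1b (-1.05 ± 0.21), Ccl6 (-1.70 ± 0.23) and Ccl9 (-1.66 ± 0.27) were lower. Among 24 antioxidant genes and NRF2 targets, 16 were tested, 7 were higher and 4 were lower, with 3 higher without NS1 and 3 with DESeq2. The metallothionein gene Mt1 (log2 fold change 2.17 ± 0.25), the selenium carrier gene Selenop (1.67 ± 0.19) and the catalase gene Cat (1.42 ± 0.21) were higher, and G6pdx (-1.60 ± 0.22) and Gsr (-1.24 ± 0.17), which supply and use NADPH for glutathione, were lower. Of 18 immediate early and heat shock genes, 17 were tested, none was higher and 5 were lower, with a median log2 fold change of -0.13. The medians of the cytokine and antioxidant lists were 0.45 and 0.27. Over all genes tested, 13.2% were higher and 12.7% lower. Higher genes made up 10.2% without NS1 and 8.09% with DESeq2.

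**Figure D3:**
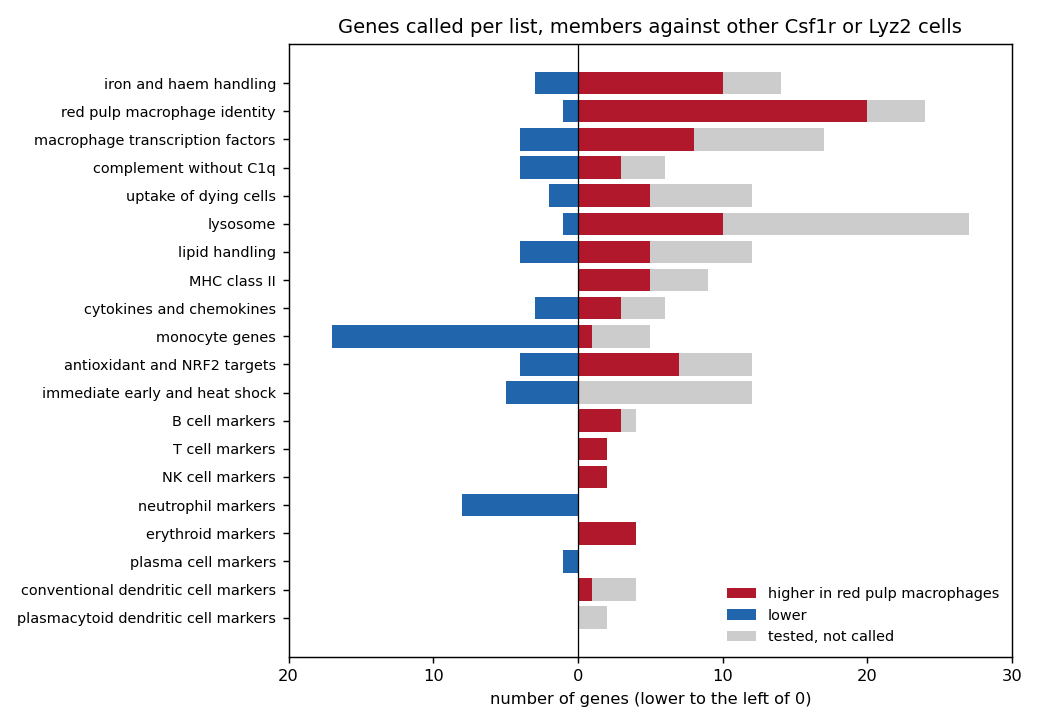
Number of genes of each list that were higher (red, to the right of 0), lower (blue, to the left) or tested and not called (gray) in red pulp macrophages against other Csf1r or Lyz2 cells of naive spleen. Identity genes stand at 20 higher of 25 tested, iron and haem genes at 10 higher and 3 lower of 17, and monocyte genes at 17 lower of 22.

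Genes of monocytes and neutrophils, which the reference cells hold, were among the 529 genes that were lower. Of 22 monocyte genes, all 22 were tested, 17 were lower and 1 was higher, with a median log2 fold change of -1.36. Ccr2, the receptor that brings monocytes out of the marrow, stood at 204, 193, 536, 85.2 and 278 CPM against 747, 997, 892, 1111 and 683 CPM (log2 fold change -1.81 ± 0.26, edgeR adjusted p = 2.9e-05). Fn1, fibronectin, stood at 58.4, 82.6, 372, 15.5 and 0 CPM against 548, 1122, 896, 615 and 412 CPM (log2 fold change -2.92 ± 0.36). Neither overlapped, and NS3 was the highest library of red pulp macrophages for both. All 8 neutrophil markers tested were lower. S100a9, a subunit of calprotectin, stood at 7599, 0, 3758, 0 and 92.8 CPM against 57412, 2485, 41091, 3926 and 6536 CPM (log2 fold change -4.58 ± 0.50), so that NS1 and NS3 were high in both groups and the groups overlapped. Without the library as a block S100a9 did not pass (log2 fold change -3.27, edgeR adjusted p = 0.12). The 10 genes with the most negative fold change among those of at least 100 CPM were S100a9, S100a8, Lcn2, Wfdc21, Cd177, Retnlg, F13a1, Anxa1, Chil3 and Fn1.

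Markers of other cell types were measured in the chosen cells themselves. The 12 B cell markers summed to 628 to 1132 CPM per library in red pulp macrophages and to 260 to 474 CPM in the reference cells, against 18848 to 22297 CPM in B cells. The 10 T cell markers summed to 340 to 720 CPM against 57.2 to 226 CPM, and the 6 NK cell markers to 9.18 to 806 CPM against 17.97 to 243 CPM. Every gene of these 3 lists had at least 1 UMI in red pulp macrophages, and these levels stand after Cd3e and Cd79a were excluded from both groups. Of the few marker genes tested, 3 of 4 B cell, 2 of 2 T cell and 2 of 2 NK cell markers were higher, among them Bank1 (153 ± 22.3 against 14.2 ± 7.38 CPM, log2 fold change 3.73 ± 0.26) and Trbc2 (99.9 ± 37.3 against 18.8 ± 15.2 CPM, log2 fold change 2.52 ± 0.27). Bank1 and Trbc2 passed the filter on low counts only through red pulp macrophages, so these counts describe the lists and are no test of them. The part of lymphocyte RNA in the other results was not tested. When cells with a UMI of Cd79b, Ms4a1, Ighd, Cd3d, Trbc2, Jchain, S100a9 or Alas2 were left out as well, 158 red pulp macrophages remained and 480 of 2565 genes passed.

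Erythroid RNA was the most uneven of these. Globin transcripts (genes of the hemoglobin chains) made up 119680, 10373, 13466, 1542 and 0 CPM of the red pulp macrophages of NS1 to NS5. The reference cells of NS1 stood at 952 CPM and the B cells of NS1 at 1849 CPM, while the cells of NS1 that met the rule but carried Cd3e or Cd79a stood at 43542 CPM. The globin level was thus high in both sets of C1q cells of NS1 and low in the reference cells and B cells. At least 1 globin UMI was found in 125 of the 331 cells (37.8%), in 35.9% of the 351 cells with Cd3e or Cd79a, in 17.7% of the reference cells and in 7.69% of B cells. It was unevenly spread: 55 cells carried at least 10 globin UMIs, 47 of them in NS1, and the highest cell carried 8344. In these 55 cells the erythroid enzyme gene Alas2 was detected in 83.6% and the erythrocyte membrane gene Slc4a1 in 60%, against at most 1.43% in the other red pulp macrophages. With globin UMIs left out of the totals, the 55 cells stood at 2300 CPM of C1qa, 2887 CPM of Vcam1 and 532 CPM of Spic. The 206 cells without a globin UMI stood at 1373, 2350 and 468 CPM, and the 70 cells with 1 to 9 globin UMIs at 1024, 1769 and 337 CPM. Median depth without globin was 1700 UMIs in the 55 cells, 2928.5 in the 206 and 3259.5 in the 70. A fixed threshold of C1q UMIs asks for a higher CPM in shallower cells. Every set was chosen by these genes, so their presence in each is fixed by the rule. Whether these cells had engulfed erythroid cells, were joined to them or were captured with them was not tested. All 4 erythroid markers tested were higher, which again describes the list and is no test of it. When cells with a globin UMI were left out of both groups, 721 of 3329 genes passed.

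**Figure D4:**
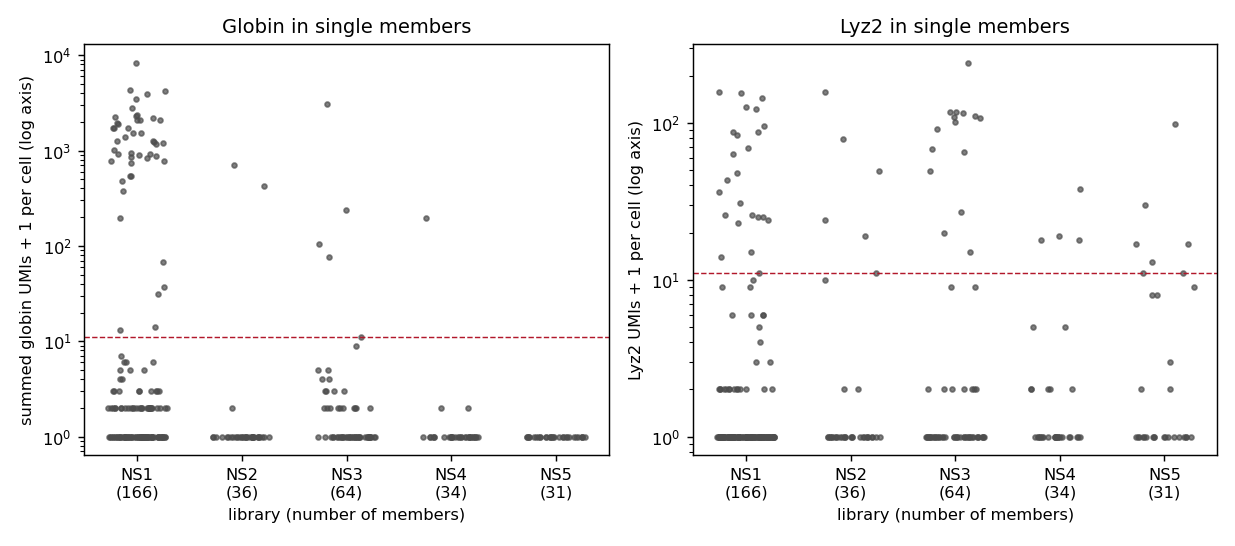
Summed globin UMIs (left) and Lyz2 UMIs (right) per red pulp macrophage, plus 1, on log axes, 1 point per cell, by library with the number of cells in brackets. The dashed lines mark 10 UMIs, reached for globin by 55 cells, 47 of them in NS1, and for Lyz2 by 56 cells across all 5 libraries.

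Lyz2 also divided the cells. No Lyz2 UMI was found in 225 red pulp macrophages, 50 carried 1 to 9, and 56 carried at least 10 and held 96.0% of the 3614 Lyz2 UMIs. The median reference cell carried 58. The 56 cells with at least 10 were deeper (median 5561.5 UMIs against 2276 in the cells without Lyz2) and lower for the genes of the rule, at 970 CPM of Vcam1 and 243 CPM of Spic against 2756 and 523 CPM. Their Mertk level was 118 CPM against 401 CPM, their Ccr2 level 855 against 32.6 CPM, and their S100a9 level 11915 against 275 CPM. Axl stood at 248 against 681 CPM, Fcna at 201 against 564, Itgam at 322 against 25.2 and Ly6c2 at 541 against 44.4. Their Ccr2 level lay within the range of the reference libraries. For these 56 cells such markers go against the name red pulp macrophage, which they hold here only by the rule. What they are was not tested. These are pooled values of cells split by a measured gene and carry no test. When only the 225 cells without Lyz2 were compared with the reference cells, 1073 of 3808 genes passed.

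The cells were then split by their Spic UMI, since Spic is the factor on which this cell type depends. The 163 Spic-positive cells were deeper (median 3600 UMIs) than the 168 Spic-negative cells (2408.5 UMIs), so detection of Spic and depth move together. Spic is also a gene of the rule, so the Spic-negative cells entered only through Vcam1, Slc40a1 or Hmox1. The genes tested here are those the rule did not use. Since the split reuses a value that chose the cells, the counts and p-values below describe the split and are no test of Spic. Of 1176 genes tested, 105 passed (8.93%), 73 higher in Spic-positive cells (6.21%) and 32 lower (2.72%). With TMM scaling the split was 62 higher and 65 lower, and with cells thinned to 1000 UMIs 55 of 186 genes passed, 14 higher and 41 lower. Among identity genes, 11 of 18 tested were higher and none was lower, with a median log2 fold change of 1.04 against 0.07 for all genes. After thinning, 3 of 5 tested were higher and none was lower, with a median of 0.97 against -0.22. Maf stood at 706, 851, 540, 1056 and 878 CPM in Spic-positive cells and at 162, 365, 162, 462 and 135 CPM in Spic-negative cells (log2 fold change 1.79 ± 0.22, edgeR adjusted p = 0.010), without overlap. Axl stood at 610, 947, 759, 611 and 726 CPM against 289, 493, 316, 400 and 236 CPM (log2 fold change 1.11 ± 0.17, edgeR adjusted p = 0.010), also without overlap. Mertk had a log2 fold change of 2.24 ± 0.42, and E230029C05Rik, a transcript without an assigned function, had the largest of the genes with at least 100 CPM (290 ± 87.3 against 32.6 ± 23.8 CPM, log2 fold change 2.79 ± 0.40). Cd5l and Hebp1 did not pass (edgeR adjusted p = 0.088 and 0.18).

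Of the iron genes, 2 of 9 tested were higher and none was lower, against 6.21% higher and 2.72% lower of all genes tested. None of 7 MHC class II genes passed, and with 8.93% of all genes passing, nothing is read from that count. Their log2 fold changes were all below 0, from -0.42 (Cd74) to -0.78 (Ciita), with a median of -0.57 against 0.07 for all genes. Ccnd1, which encodes cyclin D1, was lower in Spic-positive cells (131 ± 101 against 479 ± 256 CPM, log2 fold change -1.68 ± 0.35, edgeR adjusted p = 0.023), with overlapping libraries. The other named genes that were lower were S100a10, Tuba1b, Ran and Tmpo, each with overlapping libraries. NK cell markers summed to 0 to 591 CPM in Spic-positive and to 21.4 to 2987 CPM in Spic-negative cells, and their part in these differences was not tested. The number of calls depended on which library was left out. Without NS1, which holds 166 of the 331 cells, none of 913 genes passed in edgeR's quasi-likelihood test, while 215 had an unadjusted p under 0.05. Of the 105 genes, 95 were tested again without NS1 and all 95 had the same direction. The libraries that were kept also entered the first fit, so this is largely fixed in advance and is no support for the calls. None of the 16 identity genes tested without NS1 passed, and their median was 0.86. Without NS2 43 genes passed, without NS3 39, without NS4 94, without NS5 67, and without the library as a block 25.

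Red pulp macrophages were next compared with monocytes of the same spleens. A first set of 205 cells had at least 1 Csf1r UMI and at least 3 UMIs of Ly6c2, a marker of classical monocytes. NS5 gave only 2 of them, with 10426 UMIs in sum against 610762 in NS3. Of 2540 genes tested, 835 passed (32.9%), 302 higher in red pulp macrophages (11.9%) and 533 lower (21%). The median log2 fold change of all genes was -0.15, and with TMM scaling, which moved it to 0.01, the split was 410 higher and 367 lower. Without NS1, 503 genes passed. Of the identity genes, 19 of 21 tested were higher and 1 was lower, with a median of 4.53. As before, some of these genes passed the filter on low counts through their level in red pulp macrophages, so this describes the list and is no test of it. Axl averaged 560 ± 119 against 12.7 ± 12.8 CPM (log2 fold change 5.003 ± 0.28), Cd5l 357 ± 138 against 3.08 ± 5.14 CPM (6.87 ± 0.38), and Mertk had 378 UMIs in red pulp macrophages against 1 UMI in the monocytes.

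Iron genes were higher for 9 and lower for 1 of 14 tested, among them Trf (log2 fold change 2.07 ± 0.22), Slc48a1 (1.85 ± 0.27) and Fth1 (0.82 ± 0.12), and Bach1 was the 1 that was lower (-1.36 ± 0.23). MHC class II genes were higher for 5 of 7 tested and lower for none, with H2-Aa at a log2 fold change of 1.86 ± 0.20. Of 20 monocyte genes tested, 13 were lower and 2 were higher. Ccr2 averaged 259 ± 169 CPM in red pulp macrophages and 1583 ± 246 CPM in the monocytes (log2 fold change -2.67 ± 0.23), and F13a1, the coagulation factor XIII A chain, 63.9 ± 88.9 against 982 ± 183 CPM (-4.05 ± 0.34), both without overlap. The Ccr2 average joins unlike cells: 855 CPM in those with at least 10 Lyz2 UMIs and 32.6 CPM in those without Lyz2.

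A second set of 108 cells had a Csf1r UMI, no Ly6c2 UMI and at least 2 of Ace, Treml4, Cd300e and Nr4a1, which mark patrolling monocytes. Of 1848 genes tested, 411 passed (22.2%), 131 higher in red pulp macrophages (7.09%) and 280 lower (15.2%). The median of all genes was -0.16, and with TMM scaling (median 0.07) the split was 190 higher and 170 lower. Of the identity genes, 13 of 19 were higher and 3 were lower, with a median of 2.63, with the same limit on genes that are near 0 in the monocytes. Mertk had 0 UMIs among the 446728 of these monocytes, which puts it at least 45.5-fold higher in red pulp macrophages (against a floor of 3 UMIs over the group), and Ccr3, with the same counts, at the same bound. Axl averaged 560 ± 119 against 20.2 ± 19.5 CPM (log2 fold change 4.40 ± 0.36), without overlap.

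Of 14 genes of the monocyte list tested, 10 were lower, none was higher and 4 did not pass. Cx3cr1, the fractalkine receptor, stood at 69.7, 248, 106, 101 and 50.6 CPM in red pulp macrophages and at 408, 492, 418, 614 and 484 CPM in these monocytes (log2 fold change -2.19 ± 0.27, edgeR adjusted p = 7.1e-06), without overlap. Krt80, a keratin, had the most negative log2 fold change of the genes that averaged 100 CPM or more over both groups (34.4 ± 6.38 against 248 ± 118 CPM, -2.83 ± 0.31), followed by Apoc2, Rbpms, Ceacam1 and Cyp4f18. Itgal, the LFA-1 alpha chain, had a log2 fold change of -2.06 ± 0.20, Spn, the sialophorin CD43, -1.998 ± 0.23, and Klf4 -2.22 ± 0.23. Iron genes were higher for 7 and lower for 2 of 13 tested, with Bach1 again lower (-1.69 ± 0.28), and lysosomal genes were higher for 8 and lower for none of 22. Against the Ly6c2 monocytes the lysosomal genes were mixed, with 6 higher and 5 lower of 25 and a median log2 fold change of -0.07. None of 7 MHC class II genes passed against the Ly6c2-negative monocytes, where 22.2% of all genes tested passed. The 3 comparisons within the spleen share the same red pulp macrophages and are not independent of each other.

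The same rule found 604 of 11948 CD45+ cells in the rejecting kidney (median 3819 UMIs). Tissue, host strain, transplantation and cell isolation (collagenase digestion of the kidneys only) all differ between these cells and those of the naive spleen. They cannot be told apart, nor can a possible difference in run, and the kidney cells are named only by the rule. Levels of its genes are a description: C1qa stood at 2018 and 1956 CPM in R7K2 and R7K3, above its level in the spleen, while Vcam1 stood at 232 and 30.8 CPM, Slc40a1 at 96.9 and 10.3 CPM and Spic at 119 and 2.57 CPM, all below every spleen library. Hmox1, at 478 and 649 CPM, lay within the range of the spleen libraries. Of the 604 kidney cells, 80.3% carried an Hmox1 UMI, 28.5% a Vcam1 UMI, 16.1% a Spic UMI and 9.44% an Slc40a1 UMI.

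In the test across genes, with no block and 5 against 2 libraries, 2075 of 5601 genes passed (37%), 765 higher in the spleen (13.7%) and 1310 lower (23.4%). The median was -0.16, and with TMM scaling (median 0.03) the split was 1058 higher and 1119 lower. With R7K2 or R7K3 left out, 1289 and 1236 genes passed, under the assumption that the lone kidney library varies like those of the spleen. Of the identity genes, 16 of 26 tested were higher in the spleen cells and 4 were lower, with a median of 2.29, and 4 of the 26 had no UMI in 1 of the groups, so the count is a description. Itgad had 356 UMIs in the spleen cells and 0 in the kidney cells (at least 236-fold higher, against a floor of 3 UMIs over the group), and Cd163 202 and 0 (at least 134-fold higher). Fcna averaged 461 ± 139 against 4.21 ± 4.14 CPM (log2 fold change 6.46 ± 0.52), Slpi, a secreted protease inhibitor, 690 ± 219 against 18.3 ± 4.91 CPM (5.25 ± 0.42), and Cd5l 357 ± 138 against 9.31 ± 9.53 CPM (5.02 ± 0.55). Fcna, Slpi and Cd5l passed the filter on low counts only through the spleen cells, so no p is given. None of these overlapped.

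Other genes that set red pulp macrophages apart within the spleen were also measured in the kidney cells. Mertk stood at 292 and 78.2 CPM in R7K2 and R7K3 and did not pass (log2 fold change 0.83 ± 0.44, edgeR adjusted p = 0.15). Axl was higher in the spleen (560 ± 119 against 135 ± 36.8 CPM, 2.03 ± 0.30), as were Mrc1 (3.13 ± 0.48) and Trf (3.00 ± 0.52), while Fth1, Ftl1 and Blvrb did not pass. Gbp2b, an interferon-induced GTPase, had 0 UMIs in the spleen cells and 2208 in the kidney cells (at least 370-fold lower in the spleen). MHC class II genes were lower in the spleen cells for 5 of 10 and higher for 2, with Cd74 at 5058 ± 2928 against 12484 ± 1163 CPM (-1.31 ± 0.34), and lysosomal genes were lower for 8 and higher for 1 of 31, a share of lower genes near the 23.4% of all genes tested. Markers of B cells (5 of 5 tested), T cells (9 of 9), erythroid cells (7 of 7) and neutrophils (7 of 8) were higher in the spleen cells, as were 10 of 22 monocyte genes, and their part in the other differences was not tested. In the kidney cells the B cell markers summed to a mean of 58.7 CPM, the T cell markers to 56.1 CPM and the erythroid markers to 2.47 CPM. Most of these markers thus passed the filter on low counts only through the spleen cells, and their counts are descriptions.

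Intron length moved with the difference between spleen and kidney. Over the 5575 of 5601 genes with an annotated length, the median log2 fold change of the spleen over the kidney cells was 0.25 in the group with the shortest introns (median 1.93 kb) and -0.79 in the group with the longest (median 122 kb) when genes were put in 5 groups of 1115, with 0.10, -0.07 and -0.31 between them. In the group with the longest introns 46.5% of genes were lower in the spleen cells, against 13.4% in the group with the shortest. Cmss1 (4.37 ± 4.02 against 2408 ± 376 CPM) and Lrmda (3.72 ± 3.85 against 1422 ± 98.5 CPM), both long genes, were among the largest differences. Mertk, with 99603 intron bases, also lies in the group with the longest introns. How intronic reads were counted is not given in the sources used here, so levels of long genes across the 2 tissues carry this uncertainty.

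**Figure D5:**
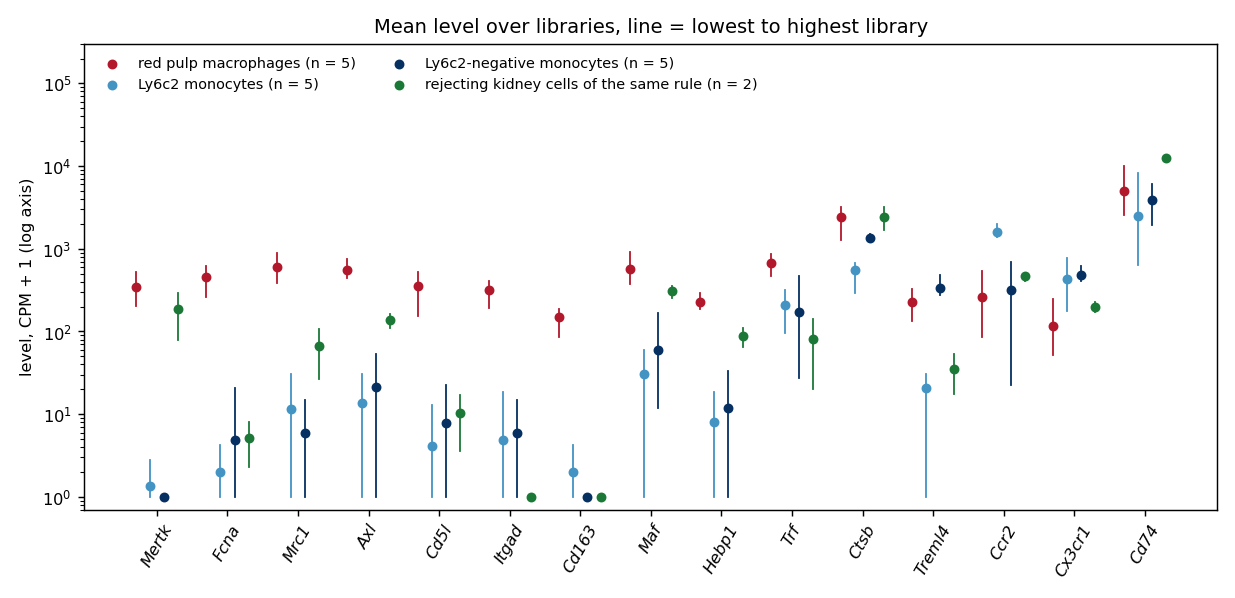
Mean level over libraries (CPM plus 1, log axis) of 15 genes in red pulp macrophages, in both sets of splenic monocytes (n = 5 libraries each) and in kidney cells of the same rule (n = 2), with a line from the lowest to the highest library. Fcna, Cd5l, Itgad and Cd163 are high only in the red pulp macrophages among the groups plotted, while Maf is also high in the kidney cells and Mertk there differs between the libraries.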

How the data were processed

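CD45+ cells of naive spleen and of rejecting kidney at 1 week were measured by droplet single-cell RNA-seq. The deposited matrices hold whole-number UMI counts per gene and cell, which the authors made with Cell Ranger (per the submitters' processing notes, which also name mm10) and deposited without normalization. Library tags in the barcodes split the naive spleen into 5 libraries and the kidney into 2. The cells, gene lists and comparisons were chosen with earlier results of these data known.

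Counts were summed per library and cell group (Python 3.11.15, scanpy 1.11.5) and tested in R 4.3.3 with edgeR 4.0.16 (quasi-likelihood test, filterByExpr, plain library totals, library as a block, Benjamini-Hochberg adjustment, threshold 0.05), after the script had been tested on simulated data. The kidney comparison had no block, and genes of the cell rules were left out of all counts and of the adjustment. The block stands for a shared library: both sums of a library come from the same library tag. Genes were named from fixed lists, or as the 15 largest and 10 smallest fold changes (5 and 5 in later comparisons) among genes that passed at a mean of at least 100 CPM over both groups, in the same direction in every library. Alternatives were TMM scaling, DESeq2 1.42.0, no filter, no block, each library left out, other cell thresholds, and cells thinned to 1000 UMIs. Leaving out cells with globin, Lyz2 or S100a9 UMIs, and thinning for the Spic split, were chosen after seeing the data. Scrublet (expected rate 0.06) marked 2.60% to 3.88% of cells in NS2 to NS5 but only 1 of 11340 in NS1, where it did not work, so no cell was removed by it. Naive spleen libraries held 30054753 to 37016197 UMIs, and intervals and floors cover counting error only. Promoter windows came from RefSeq (GRCm38.p6). CD45+ cells of accepted kidneys and of recipient spleens were not analysed here. Results for a few genes are not reported here.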

Additional observations from a re-analysis of the deposited data

Results flagged for a closer look

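In the red pulp macrophages of naive spleen, 1 of 5 libraries stood far from the other 4 for 4 of 34 measures, by Dixon's criterion, which chance meets in about 1 of 20 groups. The 34 measures share their libraries and cells and are not independent. The summed globin level was 119680 CPM in NS1 and at most 13466 CPM in the other libraries. Lcn2, a neutrophil granule gene, was 1158 CPM in NS1 and at most 156 CPM elsewhere. Wfdc21, also a neutrophil gene, was 242 CPM in NS1 and at most 57.0 CPM elsewhere, and Fn1 was 372 CPM in NS3 and at most 82.6 CPM elsewhere.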

How the results depend on the processing

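Against the other Csf1r or Lyz2 cells, 1080 genes passed. The count was 655 with DESeq2, 1730 with no filter on low counts (14466 genes tested), 686 to 1081 with 1 library left out, 480 with no UMI of further lineage genes (2565 tested) and 237 after thinning to 1000 UMIs (684 tested). Of the 1080 genes, 1073 passed in the same direction with TMM scaling and all 1080 had the same direction with DESeq2. Among reference cells without an S100a9 UMI the fold change of S100a8 reversed to 5.65. These cells were left out by S100a9, which encodes the partner of S100a8 in calprotectin. For the Spic split, 105 genes passed, 218 with no filter, 0 to 94 with 1 library left out and 55 after thinning. Against Ly6c2 monocytes, 835 passed, 545 with DESeq2, 1534 with no filter and 503 to 1003 with 1 library left out. Against Ly6c2-negative monocytes, 411 passed, 227 with DESeq2, 751 with no filter and 288 to 447 with 1 library left out. Against kidney cells, 2075 passed, 3145 with no filter and 1236 to 2387 with 1 library left out. The cause of these changes was not tested, apart from the number of genes or libraries that enter.

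Without the replicate block the counts were 702 against the other Csf1r or Lyz2 cells, 25 for the Spic split, 729 against Ly6c2 monocytes and 392 against Ly6c2-negative monocytes. No paired analysis was possible for the kidney because no library is shared between the tissues.

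The mean share of red pulp macrophages was 0.664%, 0.464% to 0.749% with 1 library left out, and 1.37% when cells with Cd3e or Cd79a were kept. Depth limits the rule itself: applied after thinning to 1000 UMIs, it found 0.340%.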
